A study of Homo sapiens with 12 samples.

Results

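Single cultures of the HER2 L755S line were compared with single cultures of the PIK3CA E545K line, 8 arrays out of 12 in the series, chosen by their titles with no measured value used. Both lines were made in MCF-10A, an immortalized line of human mammary epithelium that does not form tumours and needs EGF in its medium, and each was titled a single control. The 4 arrays of the HER2-mutant line and the 4 arrays of the PIK3CA-mutant line came from cells kept in medium with a physiologic level of EGF, with no other treatment, and harvested after 7 to 14 days. The other 4 arrays measured both lines grown together and served here only in the filter on low signal and in the estimate of each gene's spread. The labels do not say how many clones a line was made from, no unmutated MCF-10A culture was analysed here, and nothing in the labels says that the 4 samples of a line were independent cultures. The harvest day of each sample is given only as a range of 7 to 14 days. Effects of the mutations, differences between clones and any difference in harvest day thus cannot be told apart. A difference also does not say which line moved, and the p-values measure only the spread between these samples.

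HER2, encoded by ERBB2, is a receptor tyrosine kinase that pairs with EGFR or with HER3, and L755S lies in its kinase domain. PIK3CA encodes the catalytic subunit of PI3K, and E545K lies in its helical domain. Active PI3K makes a membrane lipid that recruits the kinase AKT, and AKT keeps the FOXO transcription factors out of the nucleus, while receptor kinases also drive the RAS and ERK cascade. Mammary epithelium has an inner luminal layer, marked by keratins 8, 18 and 19, and an outer basal layer, marked by keratins 5 and 14, and MCF-10A cells carry traits of both. ERBB2, PIK3CA and TP63 were not analysed here, as no probe set in use was named for them.

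Signals are deposited log2 values, 1 per probe set. Differences are given as the HER2-mutant minus the PIK3CA-mutant line on the log2 scale, with the moderated standard error from limma (n = 4 per line), and folds are the brighter line over the dimmer. Of 12758 genes tested, 59.5% differed at an adjusted p under 0.05 (limma, Benjamini-Hochberg), 30% with the HER2-mutant line higher and 29.5% with it lower. These shares are the background against which each count below is to be read. They also varied with brightness. Of 4 equal bins by mean signal, the dimmest had 18.3% higher and 14.4% lower, and the brightest 34.8% and 40.7%. The lists were not matched for brightness. On 53.0% of genes the arrays of the lines did not overlap, with the HER2-mutant arrays above on 26.4% and below on 26.6%. A difference of at least 1 on the log2 scale was passed by 21.3% of genes, 9.01% higher and 12.3% lower. Among the largest differences the lower side held more genes: 141 were lower by 4 or more and 31 were higher by as much. Correlations between arrays were 0.9906 to 0.9938 within the HER2-mutant line and 0.995 to 0.9956 within the PIK3CA-mutant line, across genes, which are not independent.

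The 95th percentile of 612 negative control probe sets served as the background bound of each array. It was 6.73 to 7.12 on the HER2-mutant arrays and 6.32 to 6.39 on the PIK3CA-mutant arrays, and 7894 to 8432 against 8954 to 9023 genes lay above it. Above background on all 4 arrays of 1 line and on 0 of the other were 81 genes in the HER2-mutant and 574 in the PIK3CA-mutant line, and 7486 genes were above it on all 8 arrays. With 1 common bound for all arrays these became 216 and 363 genes, so the excess on the PIK3CA-mutant side was smaller but kept its direction. The part of the higher background in this split was not tested beyond that. Where all 4 arrays of a line lay below the bound, the difference is given as "at least", computed against the bound, and the measured signals of that line have no order.

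**Figure D1:**
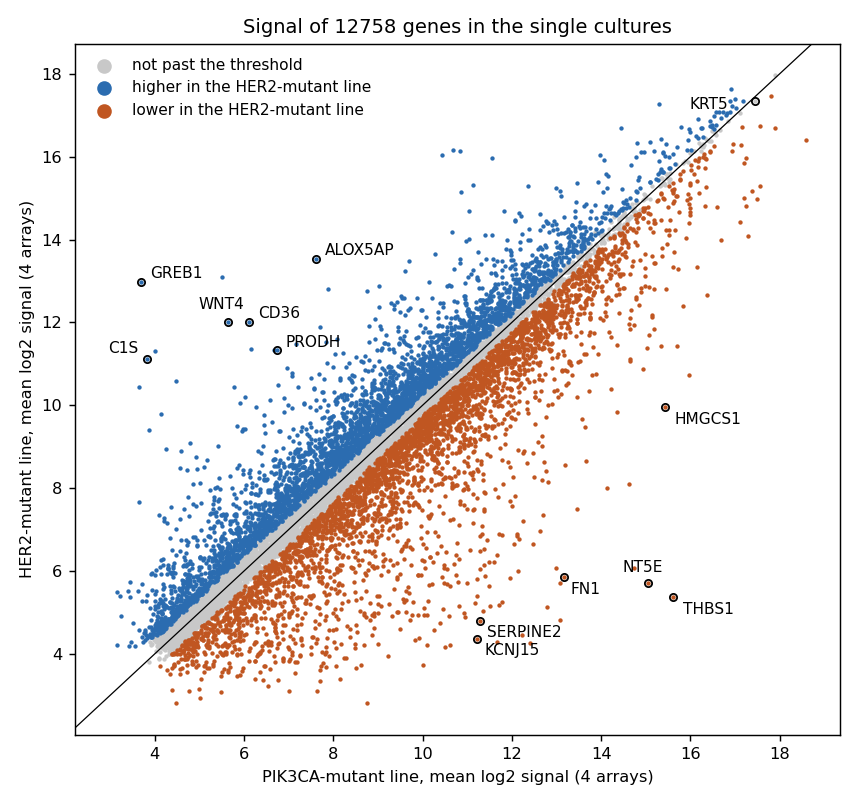
Mean log2 signal of each of the 12758 genes tested in the PIK3CA-mutant line (x axis, 4 arrays) and in the HER2-mutant line (y axis, 4 arrays), with the HER2-mutant line's higher (30%) and lower (29.5%) genes in colour and the line of equal signal drawn. KRT5 lies near the diagonal, at 17.33 in the HER2-mutant and 17.44 in the PIK3CA-mutant line, while THBS1 and NT5E lie far below it and GREB1 and C1S far above.

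Genes were grouped into 37 lists by role, holding 1591 genes, of which 1131 passed the filter on low signal and were tested. Lineage genes were split almost evenly, with 35 higher and 38 lower of 113 tested (31.0% and 33.6%). Genes of secreted proteins had 55 higher and 85 lower of 226 (24.3% and 37.6%), and surface receptors and adhesion molecules 84 higher and 105 lower of 282 (29.8% and 37.2%). Metabolic genes leaned to the lower side, with 108 higher and 255 lower of 502 (21.5% and 50.8%) and a median difference of -0.27, beside 0.05 over all genes tested. The filter lets a gene pass through the line in which it is bright, or through the mixed cultures, so these counts describe the genes that passed and no more. Calls were also made on genes below background on all 8 arrays, 954 over all genes tested. The list counts include such calls.

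**Figure D2:**
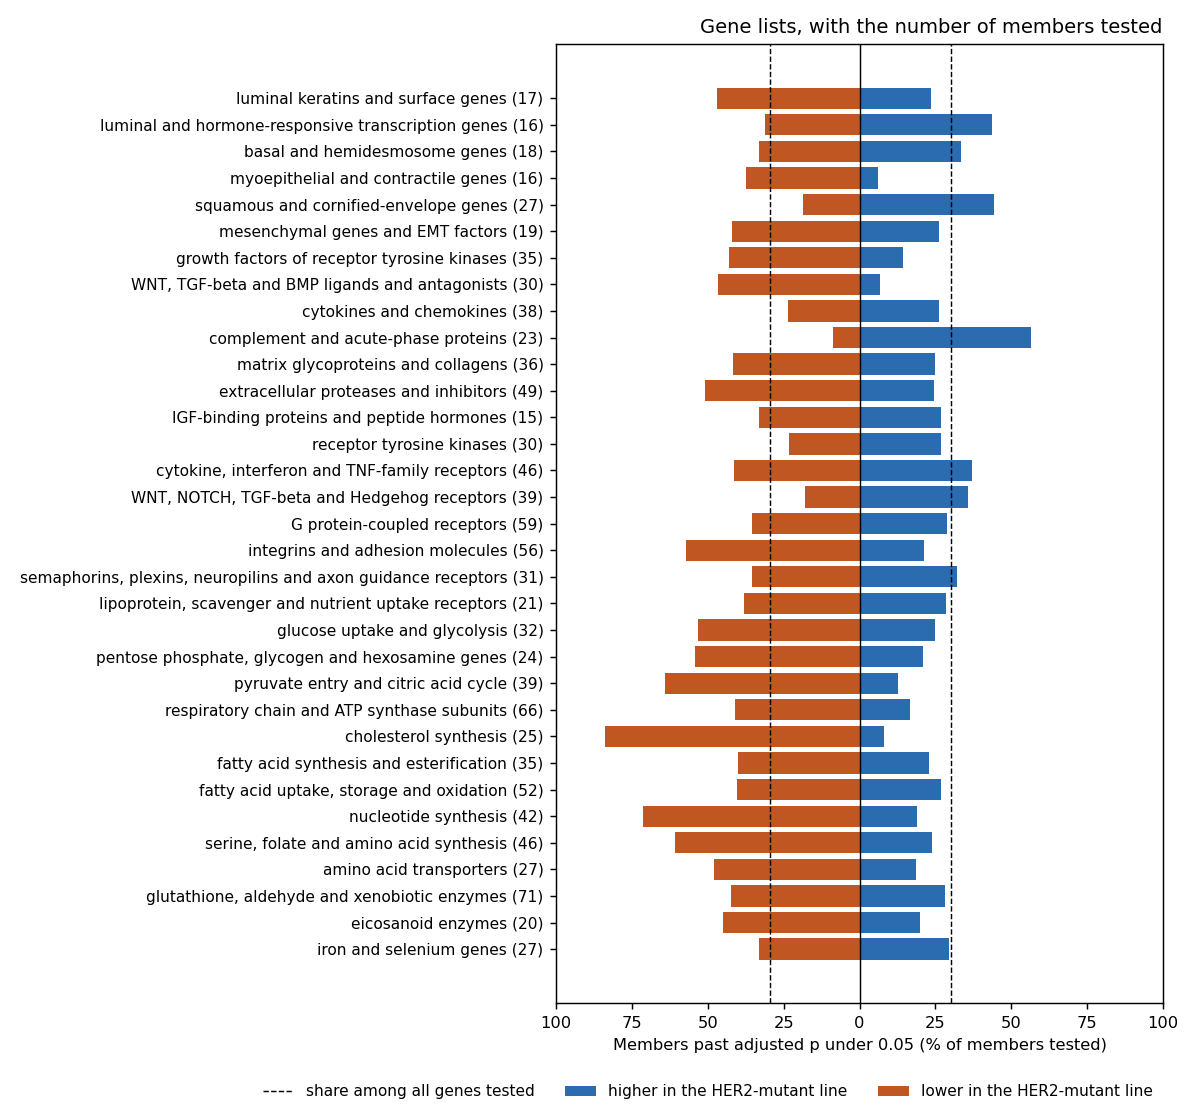
Percent of the tested members of each list that were higher (right) or lower (left) in the HER2-mutant line at an adjusted p under 0.05, with the number tested in brackets and dashed lines at the shares among all genes, 30% and 29.5%. The bars of cholesterol synthesis (84.0% lower), nucleotide synthesis (71.4% lower) and pyruvate entry and the citric acid cycle (64.1% lower) reach farthest to the left, and that of complement and acute-phase proteins (56.5% higher) farthest to the right.

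The promoters of 5 genes are shown first because their genes carry the secretory, metabolic and inflammatory differences described below and hold a motif that was searched for. SELENOP and TXNIP hold the FOXO site, HMGCS1 and FDPS hold CCAAT boxes, and CXCL8 holds the AP-1 site. Each is the 250 bases just before the gene's RefSeq start in GRCh38.p14, written 5′ to 3′ on the gene's strand, with the named motif in capitals on whichever strand it lies. The regions are chr5:42811893-42812142 (minus strand, SELENOP), chr1:145996580-145996829 (minus strand, TXNIP), chr5:43313413-43313662 (minus strand, HMGCS1), chr1:155308616-155308865 (plus strand, FDPS) and chr4:73740319-73740568 (plus strand, CXCL8).
SELENOP: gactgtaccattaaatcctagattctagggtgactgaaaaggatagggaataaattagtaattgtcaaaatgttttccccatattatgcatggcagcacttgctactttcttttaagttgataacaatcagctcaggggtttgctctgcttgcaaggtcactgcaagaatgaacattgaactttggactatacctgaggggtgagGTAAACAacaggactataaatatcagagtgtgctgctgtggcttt
TXNIP: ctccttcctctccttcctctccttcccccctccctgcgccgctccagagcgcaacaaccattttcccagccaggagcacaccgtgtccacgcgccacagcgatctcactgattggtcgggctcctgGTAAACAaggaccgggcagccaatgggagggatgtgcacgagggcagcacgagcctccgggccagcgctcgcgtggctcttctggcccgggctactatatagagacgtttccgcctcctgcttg
HMGCS1: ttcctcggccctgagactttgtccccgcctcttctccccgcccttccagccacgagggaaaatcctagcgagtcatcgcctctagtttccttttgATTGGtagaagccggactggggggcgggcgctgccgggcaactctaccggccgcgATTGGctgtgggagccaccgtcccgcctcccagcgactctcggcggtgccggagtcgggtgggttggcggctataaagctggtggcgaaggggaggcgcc
FDPS: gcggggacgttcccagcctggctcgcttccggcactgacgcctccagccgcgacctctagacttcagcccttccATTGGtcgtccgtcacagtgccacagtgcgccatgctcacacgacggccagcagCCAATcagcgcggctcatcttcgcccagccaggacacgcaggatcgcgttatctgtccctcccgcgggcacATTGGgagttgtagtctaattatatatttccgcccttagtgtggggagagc
CXCL8: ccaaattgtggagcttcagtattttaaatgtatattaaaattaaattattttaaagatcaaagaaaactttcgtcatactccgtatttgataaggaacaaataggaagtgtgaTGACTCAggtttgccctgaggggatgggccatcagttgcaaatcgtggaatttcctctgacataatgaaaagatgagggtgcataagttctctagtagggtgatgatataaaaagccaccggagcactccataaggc

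Of the 12758 genes tested, 10464 matched a RefSeq promoter of 300 bases, 250 before and 50 after the start, and 9 motifs were searched on both strands. The FOXO site GTAAACA was held by 4.81% of the 935 promoters of genes higher by at least 1 in the HER2-mutant line, 2.20% of the 1270 of genes lower by at least 1, 2.31% of those not past the threshold and 2.46% of all. The cell cycle genes homology region (CHR) TTTGAA had the opposite order, 9.52% on the higher and 15.4% on the lower side with 10.4% of all. AP-1 sites, TGACTCA, were held by 2.89% on the higher and 4.49% on the lower side with 3.29% of all, and CCAAT boxes by 35.9% and 42.9% with 36.6% of all. The other 5 were the sterol element core TCACCCCAC (0.214%, 0.315% and 0.392% on the higher side, the lower side and over all), the antioxidant element TGACNNNGC (13.5%, 15.7% and 15.0%), the ETS site CCGGAAGT (6.10%, 6.22% and 8.01%), the cyclic AMP element TGACGTCA (2.14%, 3.07% and 3.04%) and the E-box CACGTG (10.7%, 8.82% and 9.64%). An AP-1 match followed by GC is also an antioxidant match. A match is a stretch of letters and was not tested as a site that any factor binds.

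**Figure D3:**
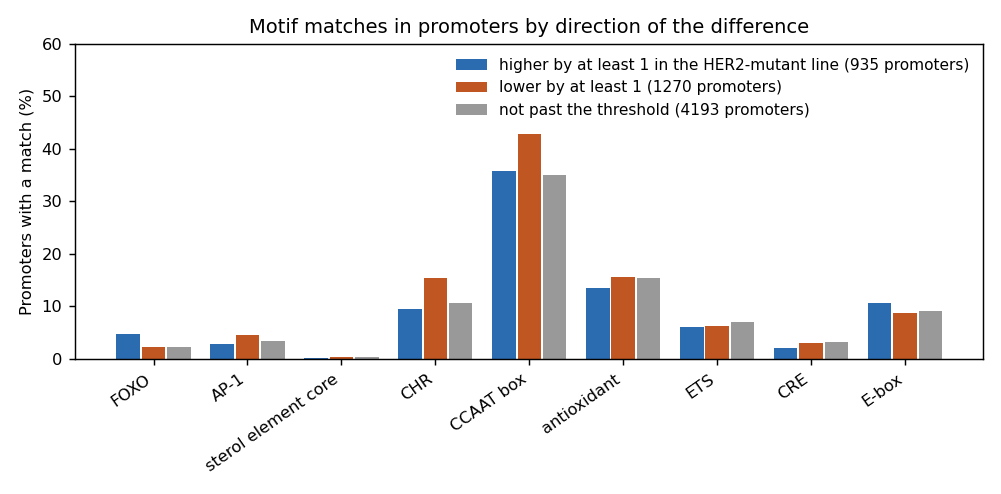
Percent of promoters with at least 1 match to each of the 9 motifs, for genes higher by at least 1 on the log2 scale in the HER2-mutant line (935 promoters), lower by at least 1 (1270) and not past the threshold (4193). The FOXO bar is tallest on the higher side (4.81%) and the CHR bar on the lower side (15.4%).

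Among the 45 promoters with the FOXO letters on the higher side, SELENOP had the largest difference. It encodes selenoprotein P, which carries selenium out of the cell, and its 4 HER2-mutant arrays read 10.46, 10.52, 10.65 and 10.71 against 5.18, 4.53, 4.28 and 3.94 on the PIK3CA-mutant arrays. Every HER2-mutant array was bright and every PIK3CA-mutant array lay below background, a difference of at least 4.23 (adjusted p = 8.46e-18). Next in size were MAP3K8, a kinase upstream of ERK (3.92), SAMD9L (2.61), YPEL3 (2.6) and EZH1 (2.55). BCL2L11, which encodes the death-promoting protein BIM, followed at 2.01. On the lower side 28 promoters held the same letters, among them those of GDF15 (at least 2.8 lower) and ACTA2 (-3.06). TXNIP, an inhibitor of thioredoxin and of glucose uptake, read 14.42, 13.35, 13.8 and 13.69 against 11.95, 12.36, 13.44 and 12.79, so that 1 array of each line crossed, at 1.18 ± 0.22 (adjusted p = 8.40e-05). TXNIP was chosen after its values were seen, for its promoter.

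Keratin genes of the luminal layer did not move as a block. KRT8 was higher in the HER2-mutant line, with 12.72, 12.79, 12.95 and 13.02 against 10.63, 10.81, 10.41 and 10.33 on the PIK3CA-mutant arrays, whereas KRT18, which encodes the usual filament partner of keratin 8, was lower at 10.77, 10.91, 11.02 and 10.74 against 13.12, 13.23, 13.29 and 13.1. The arrays of the lines did not overlap for either gene, and the differences were 2.32 ± 0.11 and -2.32 ± 0.09, so a 5.01-fold and a 5.0-fold change in opposite directions (limma adjusted p = 8.92e-15 and 1.51e-16). KRT19 was also higher (1.25 ± 0.07), and KRT7 was lower at 13.41, 13.36, 13.34 and 13.25 against 16.13, 16.13, 16.2 and 16.16 (-2.81 ± 0.08). Keratin 8 and keratin 18 genes have many processed copies in the genome, and probes cannot tell a copy of the same sequence apart. Of 26 luminal keratin and surface genes 17 were tested, and 4 were higher and 8 lower, with a median of -0.32.

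Epithelial surface genes were divided as well. MUC1, a mucin of the apical surface, read 11.19, 10.99, 11.01 and 10.54 against 7.83, 8.05, 8.48 and 7.66, and every HER2-mutant array was above every PIK3CA-mutant array (2.93 ± 0.17, adjusted p = 9.81e-13). CDH1, which encodes E-cadherin, was 1.65-fold higher, with 13.28 to 13.87 against 12.67 to 13.09. EPCAM, an epithelial adhesion protein, was 4.06-fold lower. The tight junction genes CLDN7 (-3.17 ± 0.19) and CLDN4 (at least 2.66 lower) went the same way as EPCAM, with all 4 HER2-mutant arrays of CLDN4 below background.

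Transcription genes of the luminal and hormone-responsive list had 7 higher and 5 lower of 16 tested, with a median of 0.36. Of these calls 3, all lower, were on genes below background on all 8 arrays (FOXA1, MYB and CITED1). EHF, an epithelial ETS factor, read 13.65, 13.59, 13.72 and 13.68 against 10.58, 10.08, 10.45 and 10.03, tight in the HER2-mutant line and lower on every array of the other (3.37 ± 0.13, adjusted p = 3.07e-16). GRHL2, a factor that maintains epithelial junctions, was 2.2-fold higher and GATA3, a luminal master regulator, 1.9-fold higher. XBP1, a secretory stress factor, was lower at 8.96, 9.06, 9.32 and 9.1 against 11.24, 10.98, 11.25 and 11.21 (-2.06 ± 0.11). GREB1 is known as a gene induced by estrogen, and it was bright on the HER2-mutant arrays at 12.94, 13.25, 13 and 12.72 and below background on the PIK3CA-mutant arrays, at least 6.62 higher (adjusted p = 1.26e-20). The estrogen and progesterone receptor genes ESR1 and PGR were below background on all 8 arrays, at means of 3.63 and 3.12 for ESR1 and 3.33 and 3.43 for PGR in the HER2-mutant and PIK3CA-mutant line.

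Basal genes gave 6 higher and 6 lower of 18 tested, near the background shares in both directions. KRT5 was close in the lines, at 17.27, 17.32, 17.39 and 17.34 against 17.45, 17.42, 17.41 and 17.48. Its difference of -0.11 ± 0.05 missed the threshold (adjusted p = 0.0558), and it passed with quantile normalization, with stricter filters, with a robust spread and without the third HER2-mutant array. KRT14, its usual partner, was 1.51-fold higher in the HER2-mutant line (0.6 ± 0.15). SOX9, a factor of mammary progenitors, was lower on every HER2-mutant array at 7.67, 7.57, 7.72 and 6.98 against 11.02, 11.14, 10.96 and 10.9 (-3.52 ± 0.14, adjusted p = 7.55e-16), and 1 of its HER2-mutant arrays was below background. The integrin chains that join the cell to the basement membrane at hemidesmosomes, ITGA6 and ITGB4, were 5.12-fold and 2.65-fold lower. Other genes of this basal and hemidesmosome list were divided, with DST and PLEC higher (0.86 and 0.57) and ITGA3 and CD151 lower (-1.32 and -1.13). TRIM29, a basal marker, was 2.15-fold higher.

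Contractile genes of the myoepithelial list were mostly not called or lower, with 1 higher and 6 lower of 16. The 1 higher gene, TAGLN, lay below background on all 8 arrays, as did MYL9 among the lower genes. CNN3, an actin-binding calponin, read 7.86, 8.45, 8 and 8.12 against 11.77, 11.66, 11.88 and 11.95, with no overlap (-3.71 ± 0.13, adjusted p = 7.78e-17). Smooth muscle actin, ACTA2, and a tropomyosin, TPM2, were 8.37-fold and 5.06-fold lower.

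Squamous and cornified-envelope genes were split within the list, with 12 higher and 5 lower of 27 tested (44.4% and 18.5%). CASP14, a protease of terminal skin differentiation, was at 12.16, 12.24, 12.95 and 12.25 on the PIK3CA-mutant arrays and below background on every HER2-mutant array, at least 5.44 lower (adjusted p = 1.32e-14). KRT10, a keratin of differentiated skin layers, was at 12.96, 12.47, 12.77 and 12.86 against 9.72, 8, 8.88 and 8.42, higher on all HER2-mutant arrays with a wide spread in the PIK3CA-mutant line (4.01 ± 0.35). S100A8, a calprotectin subunit, was 5.23-fold higher. KLF4, a factor of epithelial differentiation, was at least 1.99 higher.

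Mesenchymal genes had 5 higher and 8 lower of 19. VIM, which encodes the intermediate filament vimentin, read 8.17, 8.45, 8.04 and 8.11 against 12.71, 12.43, 12.95 and 12.63, and the lines were far apart relative to the spread of their arrays (-4.49 ± 0.11, 22.4-fold, adjusted p = 2.38e-19). FAP, a surface protease of activated fibroblasts, was at least 4.2 lower, with all 4 HER2-mutant arrays below background. TWIST2, a factor of epithelial-mesenchymal transition, was 3.41-fold lower, and 3 of its 4 HER2-mutant arrays were below background. In the other direction DCN, a matrix proteoglycan, was at 10.71, 10.58, 10.54 and 10.96 against 7.57, 6.87, 6.86 and 6.99 (3.62 ± 0.18), and COL6A1, a collagen chain, was 4.08-fold higher.

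Markers of cell types other than epithelium were mostly dim. PDGFRA, PDGFRB, LUM, PECAM1, CDH5, PTPRC, HBB, ADIPOQ, PLIN1 and FABP4 were below background on all 8 arrays. Of 11 fibroblast markers with a probe set 4 were above background on any array, and 1 of 10 endothelial, 4 of 11 blood and 0 of 6 adipocyte markers. The summed signal of the fibroblast markers, as log2, was 11.01 to 11.39 on the HER2-mutant and 11.43 to 11.69 on the PIK3CA-mutant arrays, and of the blood markers 8.38 to 8.56 and 9.13 to 9.44. For the endothelial markers it was 8.22 to 8.52 and 8.09 to 8.36, and for the adipocyte markers 6.4 to 6.79 and 6.43 to 6.51. DCN was higher and FAP lower, while COL1A1 and COL1A2 did not pass (adjusted p = 0.652 and 0.471). CD14, a receptor for bacterial lipid, was at least 0.55 lower. VWF, CLDN5 and CD3E were below background on all 8 arrays, and no fold is given for them. In bulk RNA, fewer cells of a type and less RNA per cell cannot be told apart.

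**Figure D4:**
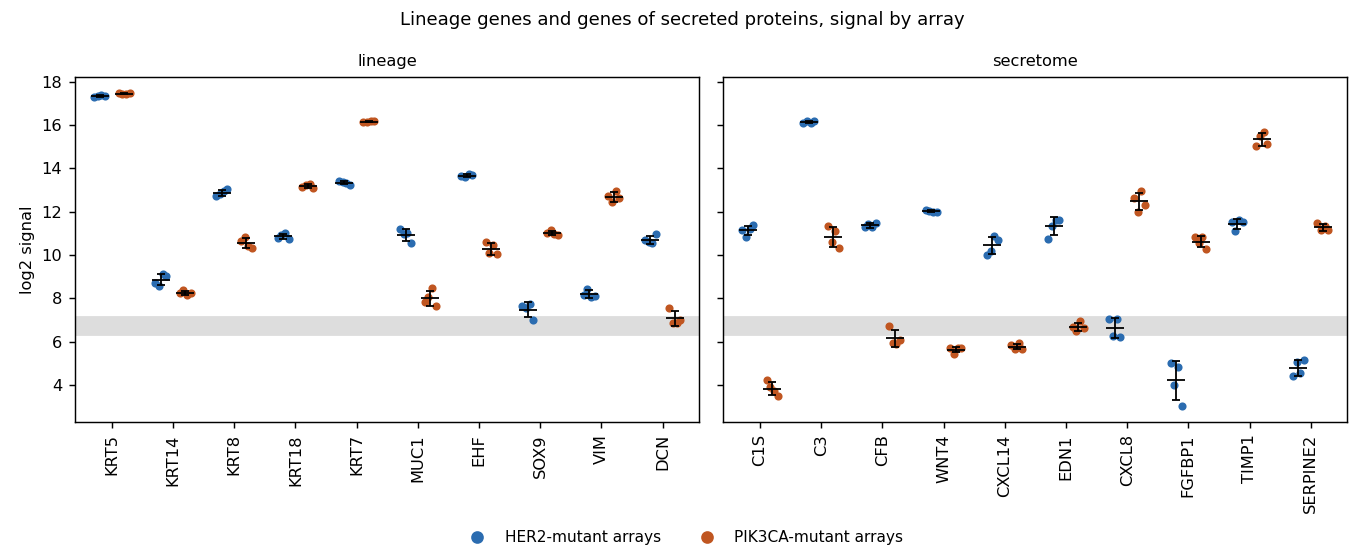
Log2 signal (y axis) of 10 lineage genes and 10 genes of secreted proteins on each HER2-mutant and PIK3CA-mutant array (points, 4 per line), with the mean and SD of each line as a bar and the range of the background bounds, 6.32 to 7.12, shaded. KRT5 is nearly level between the lines, KRT8 and KRT18 cross over, and C1S, WNT4 and CXCL14 lie below the shaded band in the PIK3CA-mutant line.

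Growth factor genes for receptor tyrosine kinases leaned to the lower side in the HER2-mutant line, with 5 higher and 15 lower of 35 (14.3% and 42.9%). FGFBP1, a protein that releases FGF from matrix, was at 10.83, 10.54, 10.84 and 10.27 on the PIK3CA-mutant arrays and below background on every HER2-mutant array, at least 3.66 lower (adjusted p = 3.60e-15). HBEGF, an EGFR ligand, was at 12.14, 11.95, 13.01 and 11.44 and likewise below background in the other line, at least 5.17 lower. The lymphatic growth factor gene VEGFC was at least 1.87 lower. Ephrin ligand genes were divided. EFNA5 was higher at 13.27, 13.04, 13.29 and 13.17 against 11.69, 11.64, 11.2 and 11.58 (1.67 ± 0.1), and EFNA1 was 2.64-fold higher. EFNB1 was 1.92-fold lower, and EFNB2, at -0.2 ± 0.13, did not pass (adjusted p = 0.191).

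WNT, TGF-beta and BMP ligands and their antagonists had 2 higher and 14 lower of 30 (6.67% and 46.7%). Of these calls 5 were on genes below background on all 8 arrays. The 2 higher genes were WNT4 and LTBP4. WNT4, a WNT of mammary branching, read 12.06, 12.04, 12 and 12 on the HER2-mutant arrays and was below background on all PIK3CA-mutant arrays, at least 5.67 higher (adjusted p = 3.42e-19). LTBP4, a binding protein for latent TGF-beta, was 5.05-fold higher. WNT7A was at least 2.27 lower, and so was GDF15, a stress cytokine, by at least 2.8. INHBA, the activin A subunit, read 8.49, 8.01, 7.87 and 7.45 against 10.19, 9.87, 10.85 and 9.81, lower on every HER2-mutant array (-2.23 ± 0.21).

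Cytokine genes were divided, with 10 higher and 9 lower of 38. CXCL8, which encodes the neutrophil attractant interleukin 8 and whose promoter is printed above, read 7.06, 6.28, 7.03 and 6.22 against 12.63, 12, 12.94 and 12.31. All PIK3CA-mutant arrays were bright, and 2 of the 4 HER2-mutant arrays were below background (-5.82 ± 0.2, adjusted p = 6.44e-17). IL18, an inflammasome-dependent cytokine, was 11-fold lower at 9.01, 9.25, 8.94 and 9.27 against 12.77, 12.44, 12.56 and 12.53. CXCL14, a chemokine of resting epithelium, was at 10.02, 10.2, 10.86 and 10.69 on the HER2-mutant arrays and below background in the other line, at least 4.08 higher. Its promoter, like that of CXCL8, held the AP-1 site. IL32 and TNFSF10, which encodes the death ligand TRAIL, were 9.42-fold and 3.49-fold higher.

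Complement and acute-phase genes were higher in 13 and lower in 2 of 23 tested (56.5% and 8.70%), with a median of 0.72. The proteases that start the classical pathway were both above background only in the HER2-mutant line, C1S at 11.14, 10.85, 11.19 and 11.36 and C1R at 10.33, 10.58, 10.75 and 10.11. Their differences were at least 4.78 and 4.08 (adjusted p = 4.21e-19 and 3.19e-17). C3, the central component cleaved by every pathway, read 16.09, 16.16, 16.09 and 16.17 against 11.33, 10.61, 11.1 and 10.3, with almost no spread in the HER2-mutant line (5.29 ± 0.16, 39.2-fold). CFB, which joins C3 in the alternative pathway, was at 11.28, 11.41, 11.28 and 11.49 against 6.74, 5.92, 5.88 and 6.08, and 3 of its PIK3CA-mutant arrays were below background (5.21 ± 0.17). C3 and CFB fell outside the rule for named genes and were chosen after their values were seen. CD59, which blocks the final membrane attack step, was on the other side, 1.89-fold lower at 13.64, 13.34, 13.67 and 13.8 against 14.58, 14.37, 14.48 and 14.68.

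Matrix genes had 9 higher and 15 lower of 36. THBS1, which encodes the matricellular protein thrombospondin 1, was at 15.47, 15.83, 15.49 and 15.68 in the PIK3CA-mutant line and below background on every HER2-mutant array, at least 8.65 lower or 402-fold (adjusted p = 1.44e-20). FN1, fibronectin, was at least 6.19 lower and the fibrillin gene FBN2 at least 1.95 lower. COL8A1, a short-chain collagen, was lower at 7.24, 5.84, 6.38 and 5.58 against 9.79, 10.18, 10.22 and 9.79, with 1 HER2-mutant array above background. LAMB1, a laminin chain of basement membrane, was higher instead, at 15.41, 15.57, 15.43 and 15.05 against 13.13, 13.56, 13.52 and 13.58 (1.92 ± 0.1), as was THBS3 (3.44-fold).

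Extracellular proteases and their inhibitors were lower in 25 and higher in 12 of 49 (51.0% and 24.5%). Of these calls 8 were on genes below background on all 8 arrays. SERPINE2, an inhibitor of thrombin and plasminogen activators, was at 11.48, 11.13, 11.35 and 11.14 in the PIK3CA-mutant line and below background in the other, at least 4.31 lower (adjusted p = 1.22e-18). TIMP1, an inhibitor of matrix metalloproteinases, stayed well above background in both lines, at 11.53, 11.11, 11.63 and 11.51 against 15.04, 15.48, 15.69 and 15.13 (-3.89 ± 0.14, 14.9-fold). The protease inhibitor TFPI2 and the lysosomal protease CTSV were at least 1.66 and 2.49 lower. PRSS8, a membrane-anchored serine protease of epithelia, was 2.18-fold higher.

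Hormone and IGF-binding genes had 4 higher and 5 lower of 15. EDN1, the precursor of the vessel-constricting peptide endothelin 1, read 10.73, 11.32, 11.62 and 11.63 against 6.69, 6.5, 6.95 and 6.61, higher on every HER2-mutant array (4.64 ± 0.19, adjusted p = 8.98e-16). ADM, adrenomedullin, was 5.59-fold higher. IGFBP2, which binds insulin-like growth factors, was at 10.81, 10.86, 10.96 and 11.16 in the PIK3CA-mutant line and below background in the other, at least 3.99 lower. STC2, a stanniocalcin, was at least 1.53 lower.

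Receptor tyrosine kinase genes were near or under the background shares, with 8 higher and 7 lower of 30 (26.7% and 23.3%). EGFR, the partner of HER2, read 13.39, 13.6, 13.71 and 13.46 against 14.02, 14.19, 14.07 and 14.17, a small shift without overlap (-0.57 ± 0.08, adjusted p = 1.21e-06). ERBB3, which encodes HER3, the kinase-weak partner of HER2, read 11.67, 11.49, 11.4 and 11.51 against 8.79, 8.8, 8.76 and 8.9. Both lines were tight for ERBB3 and the HER2-mutant arrays were all higher (2.71 ± 0.14, 6.53-fold, adjusted p = 6.97e-14). The insulin receptor gene INSR was at least 1.17 higher, and the collagen receptor gene DDR1 2.36-fold higher. EPHA2, a receptor of ephrin A ligands, was at 11.4, 11.41, 11.54 and 11.63 in the PIK3CA-mutant line and below background in the other, at least 4.53 lower, opposite in direction to its ligand genes EFNA1 and EFNA5.

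Cytokine and TNF-family receptors were called in both directions more often than the background, with 17 higher and 19 lower of 46 (37.0% and 41.3%). These shares were near those of the brightest bin of all genes tested, 34.8% and 40.7%, and the list was not matched for brightness. IL1R1, the signalling receptor of interleukin 1, read 10.08, 10.02, 10.14 and 10.22 against 6.75, 6.47, 6.42 and 6.7 (3.53 ± 0.13), while IL1RAP, its accessory chain, was at least 2.55 lower. Both chains were thus called, in opposite directions (adjusted p = 2.49e-16 and 1.01e-13). The growth hormone receptor GHR was at 11.59, 11.3, 11.74 and 11.72 against 8.33, 8.15, 8 and 7.89 (3.49 ± 0.16), and IL6R and IL17RE were 5.7-fold and 3.55-fold higher. OSMR, the receptor of oncostatin M, was lower at 9.74, 9.61, 9.91 and 9.57 against 12.65, 12.86, 12.78 and 12.77 (-3.06 ± 0.09), and so was TNFRSF12A, the receptor of TWEAK (7.88-fold).

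Receptors of the WNT, NOTCH, TGF-beta and Hedgehog pathways had 14 higher and 7 lower of 39 (35.9% and 17.9%). TGFBR3, the co-receptor betaglycan, read 11.14, 10.83, 11 and 11.06 against 8.12, 7.82, 7.6 and 7.96, higher on every HER2-mutant array (3.14 ± 0.19, adjusted p = 9.70e-13). The signalling receptor TGFBR2 and the co-receptor ENG, endoglin, were lower, by 2.2-fold and 3.65-fold. PTCH1, the Hedgehog receptor, was 4.46-fold higher, and the NOTCH ligand JAG1 was 2.81-fold lower. In its dimmer line each lay near background. PTCH1 was above it on 3 of 4 PIK3CA-mutant arrays and JAG1 on 3 of 4 HER2-mutant arrays.

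G protein-coupled receptor genes were called near the background shares, with 17 higher and 21 lower of 59 (28.8% and 35.6%). Of these calls 13 were on genes below background on all 8 arrays. ADGRL2, an adhesion receptor of the latrophilin group, read 11.63, 11.42, 11.43 and 11.64 against 7.84, 7.96, 7.76 and 7.84 (3.68 ± 0.12, adjusted p = 1.20e-17). HCAR2 and HCAR3, receptors of hydroxy fatty acids, were at least 2.12 and 1.22 higher, but they are near-identical copies and their probes may share signal. LPAR3, a receptor of lysophosphatidic acid, was at least 2.04 lower. ADORA2B, an adenosine receptor, was at least 0.88 lower, beside NT5E, the surface enzyme that makes adenosine, which was at 15.05, 15.11, 15.09 and 14.96 in the PIK3CA-mutant line and below background in the other (at least 8.09 lower).

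Integrins and adhesion molecules were lower in 32 and higher in 12 of 56 (57.1% and 21.4%), with a median of -0.44. The tight junction gene CLDN1 was at 13.39, 12.83, 13.03 and 13.02 in the PIK3CA-mutant line and below background in the other, at least 6.1 lower (adjusted p = 2.99e-20). ITGB5, an integrin chain that binds vitronectin, was at least 3.65 lower. Desmosomal cadherins were on the other side: DSG3 read 16.15, 16.05, 16.09 and 15.91 against 13.96, 13.86, 14 and 14.1 (2.07 ± 0.09), and DSC3 was 4.18-fold higher. SDC3, a heparan sulfate proteoglycan, was 2.55-fold higher.

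Axon guidance receptors had 10 higher and 11 lower of 31. FLRT3, an adhesion protein that binds UNC5 receptors, read 13.29, 13.42, 13.54 and 13.68 against 9.83, 9.55, 9.56 and 9.87, and UNC5B was also higher, by 4.88-fold. Both genes thus lay higher on every HER2-mutant array (3.78 ± 0.12 and 2.29 ± 0.13). The semaphorin receptors differed among themselves, with PLXNA2 and NRP1 at least 3.82 and 1.55 lower and PLXNB1 3.36-fold higher.

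Lipid uptake receptors had 6 higher and 8 lower of 21. CD36, which takes up long-chain fatty acids, read 11.94, 11.97, 12.13 and 12.01 against 6.31, 6.44, 5.89 and 5.8, with 3 PIK3CA-mutant arrays below background (5.9 ± 0.17, adjusted p = 1.71e-18). LRP8, a lipoprotein receptor, read 7.13, 7.16, 6.86 and 7.48 against 11.01, 11.14, 11.22 and 11.11 and was lower (-3.96 ± 0.13), as was SCARB1, the receptor of high-density lipoprotein (4.81-fold). LRP1 was 2.35-fold higher and the sorting receptor SORL1 at least 1.04 lower.

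**Figure D5:**
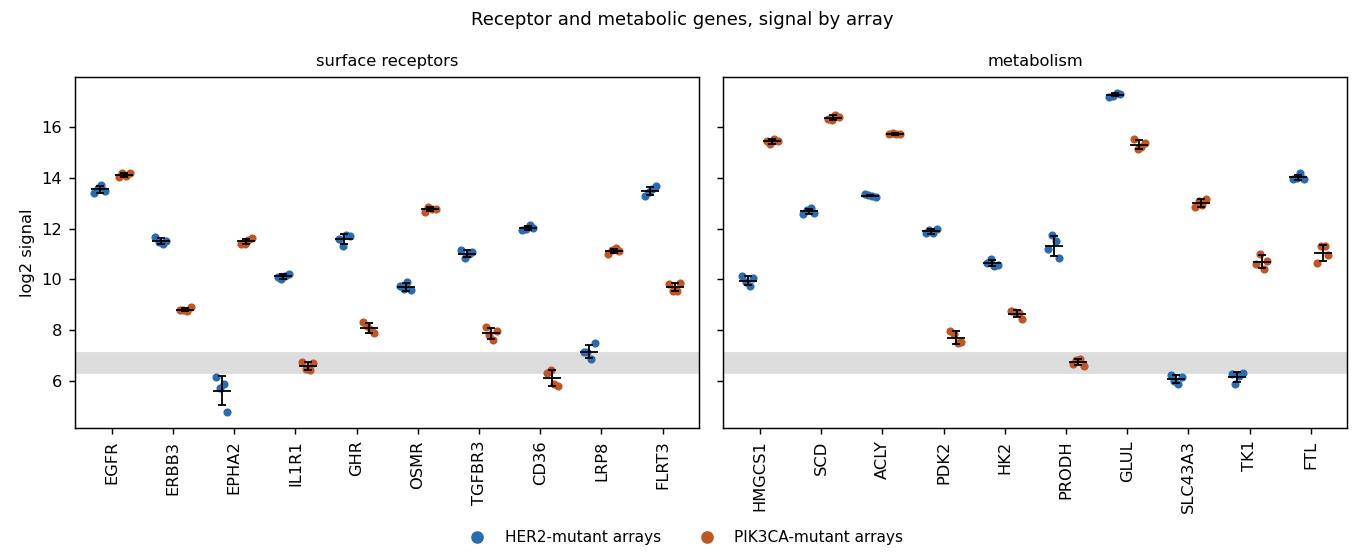
Log2 signal (y axis) of 10 receptor genes and 10 metabolic genes on each HER2-mutant and PIK3CA-mutant array (points, 4 per line), with the mean and SD of each line as a bar and the range of the background bounds, 6.32 to 7.12, shaded. EGFR differs little (13.54 and 14.11 on average), ERBB3, GHR, FLRT3, PDK2 and GLUL are higher and HMGCS1, SCD and ACLY lower in the HER2-mutant line, with every gene above the band in both lines except EPHA2, IL1R1, CD36, LRP8, PRODH, SLC43A3 and TK1.

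Cholesterol synthesis genes had the highest share of lower calls of any list, with 21 lower and 2 higher of 25 tested (84.0% and 8.0%) and a median of -1.72. HMGCS1, which makes the precursor of mevalonate and whose promoter is printed above, read 10.14, 9.89, 9.74 and 10.05 against 15.43, 15.31, 15.54 and 15.44. The lines were 44.6-fold apart with little spread in either (-5.48 ± 0.1, adjusted p = 1.74e-21). FDPS, which makes farnesyl diphosphate, read 11.27, 11.27, 11.6 and 11.54 against 15.77, 15.61, 15.7 and 15.72 (-4.28 ± 0.09), and ACAT2 and MVD, at the start and middle of the pathway, were 20.6-fold and 10.3-fold lower. Genes that regulate the pathway were called in both directions. The 2 higher genes of the list were SCAP, which escorts the SREBP factors (2.25-fold), and INSIG2, which retains them (1.54-fold). INSIG1, which has the same role as INSIG2, was 10.2-fold lower at 7.59, 7.32, 7.67 and 7.8 against 10.94, 10.8, 11 and 11.03 (-3.35 ± 0.12). SREBF2, which encodes an SREBP factor, overlapped between the lines and was lower by a small step (-0.3 ± 0.1, adjusted p = 0.0159), a call lost after quantile normalization or centring and without the second HER2-mutant (-0.202) or the fourth PIK3CA-mutant array (-0.26). CCAAT boxes were held by 15 of the 23 promoters matched for this list (65.2%), beside 36.6% of all promoters, and the sterol element core by 1. Motifs were also counted in some other lists. There CCAAT boxes were held by 25.6% of promoters for nucleotide synthesis, 16.7% for integrins and adhesion molecules and 32.7% for the respiratory chain. For complement and acute-phase proteins the share was 37.5%, and for G protein-coupled receptors 24.4%.

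Fatty acid synthesis and esterification genes were less one-sided, with 8 higher and 14 lower of 35 (22.9% and 40.0%). SCD, which makes monounsaturated fatty acids, read 12.58, 12.72, 12.8 and 12.6 against 16.31, 16.28, 16.48 and 16.37, lower on every HER2-mutant array (-3.69 ± 0.07, adjusted p = 1.18e-21). The acyl-CoA synthetase genes ACSL4 and ACSL1 went opposite ways, 9.79-fold lower and 3.03-fold higher. CERS6, a ceramide synthase, read 14.7, 14.65, 14.61 and 14.63 against 12.11, 12.04, 12.25 and 12.27 and was higher (2.48 ± 0.08), and DGAT2, which closes triglyceride synthesis, was 2.97-fold higher.

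Fat release and oxidation genes had 14 higher and 21 lower of 52. ABHD5, the activator of the fat lipase ATGL, read 11.42, 11.1, 11.19 and 10.98 against 8.57, 8.41, 8.72 and 8.33 (2.66 ± 0.15), and PNPLA2, which encodes ATGL, was 2.53-fold higher. Both were higher on every HER2-mutant array. Carnitine palmitoyltransferases, which bring fatty acids into mitochondria, were divided, with CPT1B 2.92-fold higher and CPT1A and CPT2 2.14-fold and 1.74-fold lower. The lipases LIPG and MGLL were at least 4.7 and 2.4 lower, and OXCT1, needed to burn ketone bodies, was 5.89-fold lower.

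Glucose genes leaned to the lower side, with 8 higher and 17 lower of 32 (25.0% and 53.1%). HK2, the inducible hexokinase, read 10.63, 10.82, 10.54 and 10.57 against 8.76, 8.7, 8.67 and 8.44, and SLC2A1, the main glucose transporter, read 13.25, 12.92, 13.03 and 13.19 against 11.85, 11.81, 11.71 and 11.8. Neither gene overlapped between the lines (2 ± 0.15 and 1.31 ± 0.12). Both were higher, but transporter genes were called in both directions. SLC2A12 was at least 1.44 higher, whereas SLC2A9, a urate and sugar transporter, and SLC2A6 were 7.14-fold and 4.74-fold lower. SLC2A6 was above background on 3 of 4 HER2-mutant arrays. ALDOC, an aldolase, was 7.4-fold lower. In the side branches 5 were higher and 13 lower of 24, among them PYGL, which breaks down glycogen (6.07-fold lower), PGD of the pentose phosphate pathway (5.47-fold lower) and OGT, which adds a sugar to nuclear proteins (3.87-fold higher).

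Genes of pyruvate entry and the citric acid cycle were lower in 25 and higher in 5 of 39 (64.1% and 12.8%), and the count higher became 8 when arrays were centred on the median of the genes tested. PDK2, a kinase that shuts pyruvate dehydrogenase, was the exception in size, at 11.82, 11.94, 11.81 and 12 against 7.97, 7.86, 7.49 and 7.52 (4.18 ± 0.16, 18.2-fold, adjusted p = 2.33e-16). ACLY, which turns citrate into acetyl-CoA for lipid synthesis, read 13.34, 13.31, 13.29 and 13.26 against 15.7, 15.76, 15.7 and 15.72, almost without spread in either line (-2.42 ± 0.06). SDHC, a succinate dehydrogenase subunit, read 7.85, 8.43, 7.95 and 8.85 against 12.15, 12.06, 11.96 and 11.95 (-3.76 ± 0.17), and OGDH and SDHA were 4.22-fold and 2.94-fold lower. GLUD1, which feeds glutamate into the cycle, was 1.58-fold higher.

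Respiratory chain genes differed little in size, with 11 higher and 27 lower of 66 (16.7% and 40.9%) and a median of -0.15. The share lower was near that of the brightest bin of all genes tested, 40.7%. By at least 1 on the log2 scale, 1 was higher and 2 were lower. These were NDUFA13 (9.48, 9.51, 9.56 and 9.73 against 7.61, 8.1, 7.72 and 8.1, 1.69 ± 0.13), NDUFS6 (12.83, 12.67, 12.78 and 12.7 against 14.9, 14.82, 14.77 and 15.06, -2.14 ± 0.08) and CYCS, cytochrome c (2.5-fold lower). NDUFA13 and NDUFS6 are both subunits of complex I, and their arrays did not overlap between the lines. CYCS and the succinate dehydrogenase genes have copies elsewhere in the genome, and their signals may include them.

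Nucleotide synthesis genes were lower in 30 and higher in 8 of 42 (71.4% and 19%), with a median of -0.74. RRM2, the regulated subunit of the enzyme that makes deoxynucleotides, was at 11.73, 11.8, 11.64 and 11.72 in the PIK3CA-mutant line and below background in the other, at least 4.76 lower (adjusted p = 1.16e-20). TK1, thymidine kinase, was at 10.62, 11.01, 10.42 and 10.74 and below background in the HER2-mutant line, at least 3.73 lower. TYMS, thymidylate synthase, read 7.21, 7.83, 7.76 and 7.18 against 11.34, 11.05, 11.15 and 11.09 (-3.66 ± 0.14). Genes of enzymes that break nucleotides or their bases down were called in both directions. DPYD and SAMHD1 were 3.13-fold and 1.73-fold higher, and PNP, which splits purine nucleosides, was 10.7-fold lower at 9.06, 9.15, 9.45 and 9.35 against 12.68, 12.61, 12.61 and 12.77 (-3.42 ± 0.1).

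Serine, folate and amino acid synthesis genes were lower in 28 and higher in 11 of 46 (60.9% and 23.9%), with a median of -0.83. PHGDH, the first enzyme of serine synthesis, read 7.87, 8.31, 8.67 and 8.81 against 10.75, 10.91, 10.72 and 10.76 (-2.37 ± 0.18, adjusted p = 8.69e-11). The mitochondrial folate enzymes MTHFD2 and ALDH1L2 were 5.15-fold and 8.11-fold lower. PRODH, which degrades proline, was among the higher genes at 11.21, 11.75, 11.52 and 10.84 against 6.69, 6.83, 6.86 and 6.59 (4.59 ± 0.17, adjusted p = 2.59e-16). GLUL, glutamine synthetase, read 17.19, 17.23, 17.33 and 17.29 against 15.52, 15.11, 15.22 and 15.36 and was 3.89-fold higher with no overlap.

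Amino acid transporters had 5 higher and 13 lower of 27. SLC43A3, listed with its amino acid carrier family and known to carry purine bases, was at 12.83, 13.08, 12.91 and 13.18 in the PIK3CA-mutant line and below background in the other, at least 6.04 lower (adjusted p = 1.14e-21). SLC1A3, a glutamate and aspartate carrier, read 8.27, 7.48, 8.25 and 8.61 against 12.86, 12.55, 12.88 and 12.92 (-4.65 ± 0.16), and SLC7A11, the cystine importer, was at least 3.2 lower. SLC7A2, a carrier of arginine and lysine, read 11.16, 11.18, 11.31 and 11.3 against 7.99, 8, 8.3 and 7.91 and was higher (3.19 ± 0.13), as was SLC7A8 (4.29-fold).

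Glutathione, aldehyde and xenobiotic enzymes had 20 higher and 30 lower of 71 (28.2% and 42.3%). AKR1C1 and AKR1C3, ketosteroid reductases, read 13.42, 13.18, 13.24 and 13.18 against 9.73, 9.55, 9.8 and 9.34 and 14.57, 14.52, 14.97 and 14.73 against 11.2, 11.1, 11.07 and 10.84. They are close copies of each other whose probes may share signal, and each was 12.5-fold higher (adjusted p = 6.61e-18 and 4.08e-18). Cytochrome P450 genes were divided, with CYP3A5 and CYP1B1 at least 3.04 and 2.2 higher and CYP4F11 at least 0.67 lower. GSTO1 and CBR1 were 6.28-fold and 4.77-fold lower.

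Eicosanoid genes had 4 higher and 9 lower of 20. ALOX5AP, which presents arachidonic acid to 5-lipoxygenase, read 13.4, 13.45, 13.41 and 13.85 against 7.42, 7.71, 7.57 and 7.75 (5.92 ± 0.14, 60.4-fold, adjusted p = 5.40e-20). PTGES, which makes prostaglandin E2, read 9.07, 8.32, 8.78 and 9.27 against 12.29, 12.17, 12.34 and 12.15 and was lower (-3.38 ± 0.15), and HPGD, which inactivates prostaglandins, was 2.4-fold higher. Both genes were thus called on the same arrays in opposite directions. HPGD was above background on 3 of 4 PIK3CA-mutant arrays.

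Iron and selenium genes had 8 higher and 9 lower of 27, close to the background shares. FTL, the ferritin light chain that stores iron, read 13.95, 13.97, 14.18 and 13.94 against 10.65, 11.31, 11.3 and 10.94 (2.96 ± 0.13, adjusted p = 2.21e-15), and FTL has processed copies whose signal may be included. The iron reductase gene CYBRD1 read 14, 14.03, 14.22 and 14.14 against 11.44, 11.29, 11.5 and 11.42 (2.69 ± 0.1), and the iron importer SLC11A2 was 3.37-fold higher. TFRC, the transferrin receptor, was 2-fold lower at 14.24, 14.06, 14 and 14.37 against 15.21, 15.13, 15.07 and 15.26. SLC39A14, also an iron importer, was 1.67-fold lower, so importer genes were called in both directions.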

How the data were processed

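RNA of the 12 samples was labelled with a whole-transcript kit from 5 µg and hybridised to whole-transcriptome arrays, per the labels' protocols. The authors deposited log2 signals per probe set, and the submitters' processing notes name the Transcriptome Analysis Console as the software; its version and the background correction and normalization are not given in the sources used here. The array medians were 6.41 to 6.49, and no further normalization was applied. With 4 arrays in each group, that number sets the limit of precision.

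Of 24351 probe sets, 17709 carried exactly 1 gene symbol in the platform annotation (17687 genes, brightest probe set per gene). Genes above the 30th percentile of the named probe sets on at least 4 of 12 arrays were kept (12758). The model of 3 group means over all 12 arrays was fitted in limma 3.58.1 under R 4.3.3, with moderated variances that follow the signal level (eBayes with trend). Tests were two-sided and genes were called at a Benjamini-Hochberg adjusted p under 0.05. Samples were grouped by their titles and 0 were left unassigned.

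In simulated data on these 12758 genes, 54% of changes of 0.5, 94% of changes of 1 and 100% of changes of 2 and of 3 were called (50 genes per step), 3.87% of calls were false, and data without change gave 0 calls. The simulated noise was independent between genes, with the same spread in every group. The measured spread was wider in the HER2-mutant line, and far more genes, 59.5%, were called. The simulated rates thus need not hold for these data.

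The lists and genes were chosen with earlier results of these data known. The rule named up to 4 members of a list in each direction (those farthest apart among called genes without overlap of arrays), cell type markers, a few genes by name and up to 5 genes per direction outside the lists; fewer are printed. INSIG1, SREBF2, PNP, CPT1A, CPT2, EFNB1 and EFNB2 were added after their values were seen. The alternatives were the 8 single-culture arrays alone, quantile normalization, centring on the median, no filter or a filter at the 50th percentile, no trend, a robust spread, a replicate block, a tested margin of 0.5, the mean of probe sets, another percentile for the background and leaving out each array. A filter on the background bound and 1 common background bound were added after the data were seen. Promoters were read from the RefSeq table of GRCh38.p14.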

Additional observations from a re-analysis of the deposited data

Results flagged for a closer look

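Within a line, 1 array stood apart from the other 3 for 16 of the 380 pairs of a gene and a line that were checked (190 genes in 2 lines). The measure is the gap of that array to its nearest neighbour over the whole range of the 4, and each lay above Dixon's 95% critical value. Chance passes about 1 in 20 such groups.

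In the PIK3CA-mutant line the second array was the one apart for EPCAM (0.9, at 11.03 with the others at 11.21 to 11.23), XBP1 (0.852, at 10.98), TRIM29 (0.917, at 14.21), WNT7A (0.889, at 8.97), WNT4 (0.862, at 5.44, below background like the others) and SLC1A3 (0.838, at 12.55). The third was apart for CDH1 (0.833, at 13.09), CASP14 (0.886, at 12.95) and IL32 (0.836, at 7.59). The first was apart for LAMB1 (0.867, at 13.13) and the endothelial lipase gene LIPG (0.875, at 11.33), and the fourth for HPGD (0.8293, at 6.06).

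In the HER2-mutant line the first array was apart for TPM2 (0.878, at 10.53) and CPT1A (0.865, at 8.0 with the others at 8.64 to 8.74), the fourth for ALOX5AP (0.889, at 13.85) and the third for FTL (0.875, at 14.18). For each of these 16 genes the arrays of the lines did not overlap, with or without that array. The rule for naming list members required this, so for genes named by it the outcome was fixed in advance.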

How the results depend on the processing

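Among the 190 named genes, 0 called differences changed direction under the alternatives run. Most of these genes were picked for called differences without overlap, so few could have reversed. The balance of calls did shift. The share of calls with the HER2-mutant line higher was 50.5% in the reported fit and 49.4% with the filter at the 50th percentile. It was 44.3% with the tested margin of 0.5 and 47.7% with the filter on the background bound. In the other direction, it was 52.7% after quantile normalization and 56.8% after centring on the median of the genes tested. Which side held more calls thus depended on the processing. The count of genes differing was 7587 in the reported fit and 7180 to 7484 when 1 array of either line was left out, 7425 on the 8 arrays alone, 7589 after quantile normalization, 7792 after centring and 6582 of 9268 with the stricter filter. With a tested margin of 0.5, 1561 genes were higher and 1963 lower, and 167 list members were higher; 11 of the 190 named genes lost their call, and 30 of 66 list counts moved by over 1.5 times. Above background in 1 line only were 81 genes in the HER2-mutant and 574 in the PIK3CA-mutant line. These numbers became 170 and 298 with the 99th percentile of the negative controls and 216 and 363 with 1 common bound. Leaving out 1 array gave 82 to 90 and 584 to 710. Those counts could not fall, as fewer arrays had to meet the condition. The cause was not tested beyond these bounds. Replicate numbers did not pair the samples: same-numbered arrays had correlations of deviations of -0.017, 0.06, 0.048 and -0.017, and the replicate block gave 7604 calls, 7513 of them shared with the reported fit, and changed the call of 0 of the 190 named genes. CLDN5 (0.493 in the reported fit) lost its call without the second HER2-mutant array (0.383) and without the third (0.379) or the fourth (0.398) PIK3CA-mutant array. CD3E (0.544) lost it after quantile normalization (0.453) and without the third HER2-mutant (0.397), the first (0.431) or the fourth (0.512) PIK3CA-mutant array. VWF gained a call after centring (0.479) and without the third array of either line (0.567 and 0.532). SREBF2 (-0.297) lost its call after quantile normalization (-0.187), after centring (-0.216) and without the second HER2-mutant (-0.202) or the fourth PIK3CA-mutant array (-0.26). CLDN5, CD3E and VWF lie below background, where 954 calls were made on genes under the bound on all 8 arrays.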

Other observations

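Some of the widest differences lay in genes outside the lists. KCNJ15, an inward-rectifying potassium channel gene, was at 10.98, 11.27, 11.43 and 11.22 in the PIK3CA-mutant line and below background on every HER2-mutant array, at least 4.26 lower. XDH, which encodes the purine-degrading enzyme xanthine dehydrogenase, was at 11.68, 11.86, 11.91 and 11.73 and likewise below background in the HER2-mutant line, at least 4.83 lower. GPNMB, a membrane glycoprotein of lysosomes and melanosomes, was higher at 15.95, 15.78, 16 and 16.11 against 12.06, 11.29, 11.35 and 11.52 (4.4 ± 0.25). PDZK1IP1, a small membrane protein gene, read 12.57, 12.6, 12.88 and 13.2 against 8.34, 7.44, 7.68 and 8.05 (4.94 ± 0.19), and ECHDC3 was at least 2.59 higher.

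The spread between arrays was wider in the HER2-mutant line. The median SD of a gene over 4 arrays was 0.202 there and 0.158 in the PIK3CA-mutant line, and 65.1% of genes had the larger SD in the HER2-mutant line. Direction also varied with brightness: with genes split by mean signal into 4 equal bins, the HER2-mutant line was higher for 18.3% and lower for 14.4% of the dimmest bin, and higher for 34.8% and lower for 40.7% of the brightest. The part of the higher background of the HER2-mutant arrays in this order was not tested.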
